A study of Mus musculus with 6 samples.

Results

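The genes described here drive the cell cycle, and they were followed in dendritic epidermal T cells (DETC) of mice with and without a functional AHR, a transcription factor that binds small aromatic ligands. They form a named list of 39 genes, 19 of DNA replication and 20 of mitosis, which were found in the data by gene symbol, with the brightest probe set standing for a gene. Of these, 38 were measured among 20300 genes tested, 18 of replication and all 20 of mitosis. Mcm7, a subunit of the replicative helicase, had no probe set under its symbol and was not analysed here.

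The RNA came from DETC sorted from epidermis (back and belly) of B6.129-Ahrtm1Bra/J mice of either sex aged 2 weeks, with each pool holding RNA of 2 to 3 animals. Ahr-ko mice were compared with Ahr-het littermates, so the control cells also carried the knockout allele, on a single chromosome, and no sample was labelled as wildtype. The study's text speaks of wildtype mice as the source of such DETC, and here the labels were followed. The deletion is present in every cell of the animal and not only in DETC. Cells were taken as positive for the γδ T cell receptor and its Vγ3 chain at a purity of 90 to 98%, and per the design text of the series DETC made up 10 to 15% of living epidermal cells in Ahr-het but 2 to 4% in Ahr-ko skin. Total RNA of 10 ng was amplified and labelled for Clariom S Mouse arrays, on which short oligonucleotides read out transcripts of mouse genes, with 3 arrays per genotype.

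DETC enter the skin before birth and then keep up their numbers by dividing locally in the epidermis. At the start of S phase, E2F transcription factors switch on genes whose products license origins, make deoxynucleotides and copy DNA. Later, the B-MYB and FOXM1 complexes switch on genes for chromosome condensation, the spindle and cytokinesis, often through a promoter element called CHR together with CCAAT boxes. In resting cells the DREAM complex holds both groups of genes silent. In bulk RNA of this kind, a larger share of dividing cells and more of a transcript per dividing cell cannot be told apart.

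Promoter sequences are shown for 6 genes on which the results below turn, so that the elements of the replication genes can be set beside those of the mitosis genes. They are RefSeq windows on GRCm38.p6, with 250 bases before the annotated start of a transcript and 50 from it on, written 5′ to 3′ on the strand of the gene. Capitals mark E2F motifs (TTTGGCGC or TTTGCCGC or TTTCGCGC or TTTCCCGC), CHR motifs (TTTGAA or TTCGAA) and CCAAT boxes (CCAAT), each on either strand.
Tyms (chr5:30073576-30073875, minus strand): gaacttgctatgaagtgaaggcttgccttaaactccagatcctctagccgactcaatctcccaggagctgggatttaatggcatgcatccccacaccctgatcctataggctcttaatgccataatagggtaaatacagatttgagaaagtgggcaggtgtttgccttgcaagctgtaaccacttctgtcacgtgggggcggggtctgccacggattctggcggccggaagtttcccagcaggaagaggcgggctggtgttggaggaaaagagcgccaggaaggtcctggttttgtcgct
Mcm6 (chr1:128359656-128359955, minus strand): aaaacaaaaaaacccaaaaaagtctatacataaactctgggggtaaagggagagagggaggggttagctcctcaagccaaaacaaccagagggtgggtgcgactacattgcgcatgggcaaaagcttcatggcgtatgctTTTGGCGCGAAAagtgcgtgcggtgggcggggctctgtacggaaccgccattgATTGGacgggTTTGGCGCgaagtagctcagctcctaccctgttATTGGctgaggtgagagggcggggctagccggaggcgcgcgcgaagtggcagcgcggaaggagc
Rrm1 (chr7:102441445-102441744, plus strand): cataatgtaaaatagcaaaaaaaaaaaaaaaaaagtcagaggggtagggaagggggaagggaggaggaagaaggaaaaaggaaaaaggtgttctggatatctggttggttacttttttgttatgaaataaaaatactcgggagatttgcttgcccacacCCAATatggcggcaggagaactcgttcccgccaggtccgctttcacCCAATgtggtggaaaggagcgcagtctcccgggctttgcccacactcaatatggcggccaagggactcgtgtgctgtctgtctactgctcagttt
Cdk1 (chr10:69352863-69353162, minus strand): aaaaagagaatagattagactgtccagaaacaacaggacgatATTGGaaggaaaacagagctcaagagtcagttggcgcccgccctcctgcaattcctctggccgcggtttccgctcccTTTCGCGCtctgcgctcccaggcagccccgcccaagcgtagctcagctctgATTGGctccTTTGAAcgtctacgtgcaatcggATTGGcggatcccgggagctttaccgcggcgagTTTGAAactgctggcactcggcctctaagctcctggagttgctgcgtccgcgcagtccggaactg
Plk1 (chr7:122159185-122159484, plus strand): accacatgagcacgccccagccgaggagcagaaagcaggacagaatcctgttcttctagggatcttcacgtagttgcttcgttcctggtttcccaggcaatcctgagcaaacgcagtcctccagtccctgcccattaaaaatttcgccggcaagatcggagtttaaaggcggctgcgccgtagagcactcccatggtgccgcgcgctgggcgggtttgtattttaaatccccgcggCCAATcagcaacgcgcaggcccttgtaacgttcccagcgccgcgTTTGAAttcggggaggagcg
Bub1 (chr2:127831810-127832109, minus strand): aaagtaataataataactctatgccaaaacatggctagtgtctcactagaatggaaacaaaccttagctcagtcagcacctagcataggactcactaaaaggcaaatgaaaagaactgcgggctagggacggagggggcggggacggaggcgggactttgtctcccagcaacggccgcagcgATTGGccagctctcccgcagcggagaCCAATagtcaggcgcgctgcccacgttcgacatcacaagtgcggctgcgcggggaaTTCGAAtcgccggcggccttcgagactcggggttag

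The window of Mcm6 held 3 E2F motifs, of which an overlapping pair reads from opposite strands, and 2 CCAAT boxes. That of Cdk1 was the only window of a mitosis gene with an E2F motif, and it also held 2 CHR motifs and 3 CCAAT boxes. Plk1 had 1 CHR motif and 1 CCAAT box, and Bub1 had 1 CHR motif and 2 CCAAT boxes. Rrm1 held 2 CCAAT boxes and neither of the other motifs, and the Tyms window held none of the 3, so no letters are in capitals there.

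RefSeq windows were found for 31 of the 38 measured genes, 16 windows of 15 replication genes (Uhrf1 has 2) and 16 of 16 mitosis genes. An E2F motif was in 37.5% of the replication windows, 6.25% of the mitosis windows and 2.26% of all 32851 promoters of the same length. For CHR the order was turned, with 6.25%, 75% and 19.2%. All 12 mitosis windows with a CHR motif also held a CCAAT box, a combination found in 7.52% of all promoters. CCAAT boxes were in 62.5% of the replication and 87.5% of the mitosis windows, against 37.4% of all, and the GC box (GGGCGG) was in 81.2% of either group against 35.7%. The letters GCGTG, the core of the xenobiotic response element to which AHR binds with ARNT, were in 50% of replication windows, 68.8% of mitosis windows and 32.4% of all. Such matches describe these letters in these windows and do not show binding of any factor.

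**Figure D1:**
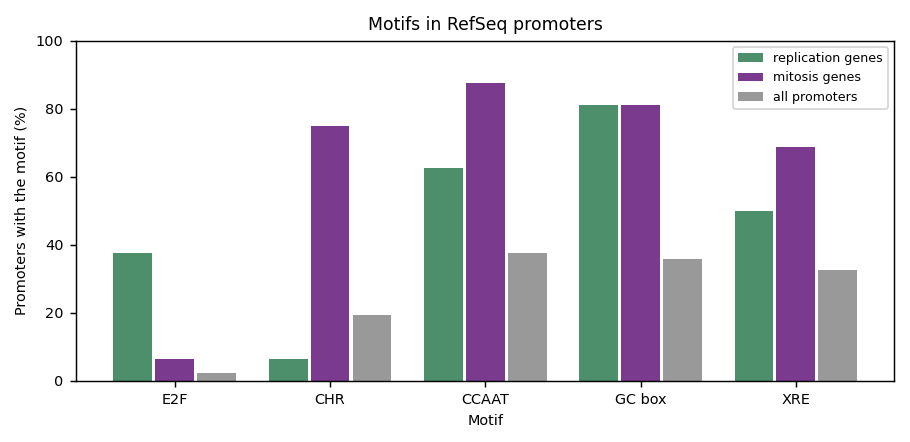
Share of promoters (%, vertical axis) holding each of 5 motifs (horizontal axis) among 16 windows of replication genes, 16 of mitosis genes and all 32851 RefSeq promoters. CHR stands at 75% in mitosis windows and 6.25% in replication windows, and E2F at 6.25% and 37.5%.

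The number 1 array of each genotype deviated from the others of its group in the same way over all genes. Numbers 2 and 3 were not told apart in this way. Deviations of Ahr-het 3 correlated at 0.336 with those of Ahr-ko 2 and at 0.207 with those of Ahr-ko 3. What a replicate number stands for is not stated in the labels. A background limit was set on each array from 1371 genes of olfactory and vomeronasal receptors, as the level under which 95% of them fell. It lay between 7.45 and 7.59 on the log2 scale, and 58 to 60.3% of genes were above it. The targeted gene Ahr was measured at 10.77, 10.62 and 10.72 in Ahr-het and at 10.00, 10.40 and 10.39 in Ahr-ko (adjusted p = 0.177, limma). As the files do not say where its probes lie relative to the deleted part, this does not check the labels. All 12 measured DETC markers of 16 listed were above the limit on all 6 arrays, among them the CD3 chains, and the γδ receptor genes of the list had no probe set under their symbols. Of these 12, 1 was called higher and 0 lower in Ahr-ko (limma), beside 1.58% and 1.57% of all genes. Without overlap of the groups 3 were higher and 4 lower, beside 9.76% and 8.91% of all genes.

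Markers of some other cells moved with the groups or the numbers. Of 14 keratinocyte markers 11 were above the limit on all arrays and Dsg3 was below it on all. Their mean level was 9.03, 9.32 and 9.31 in Ahr-het 1 to 3 and 8.89, 9.22 and 9.13 in Ahr-ko 1 to 3 (log2), lowest on the number 1 array of either genotype. Dsp, which codes for desmoplakin, was the only one to pass the test and was lower in Ahr-ko by 1.22 (adjusted p = 2.4e-05, limma). The median difference of the 14 keratinocyte markers was −0.016, with 6 positive and 8 negative. Mean levels of 4 markers of NK cells and innate lymphoid cells were 7.84 to 8.17 in Ahr-het and 8.996 to 9.67 in Ahr-ko, with Eomes and Ncr1 below the limit on all Ahr-het arrays. Of these 4, Eomes, Ncr1 and Klri2 were called higher, while Klrb1c was lower within each number, with a difference of −0.83 (adjusted p = 0.308 in limma, and 0.00169 with the block). For 6 measured αβ T cell markers the mean levels were 8.59 to 8.66 and 9.07 to 9.13. Of their differences 3 were positive and 3 negative, with Cd8a, Cd8b1 and Cd6 called higher and Themis called lower in Ahr-ko. Among markers of Langerhans cells, melanocytes, B cells, mast cells, fibroblasts and endothelium no gene was called with or without the block. The part of any of these cells in the values below was not tested.

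Most cell cycle genes were measured at a higher level in Ahr-ko DETC, but few differed from Ahr-het beyond the spread of the arrays. The log2 difference of Ahr-ko minus Ahr-het was above 0 for 34 of 38 genes, against 50.8% of all genes. Its median was 0.31 over the replication genes and 0.44 over the mitosis genes, beside 0.00379 over all genes. Across all genes in limma, at an adjusted p under 0.05, 1 replication gene (Tyms, higher) and 0 mitosis genes passed, where 1.58% of all genes were called higher and 1.57% lower. At an unadjusted p under 0.05 there were 6 higher and 2 lower among the replication genes, and 8 higher and 0 lower among the mitosis genes (6.69% and 6.54% of all genes).

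With the replicate number as a block, which compares the genotypes within each number, 13 of the 38 genes were called higher and 2 lower, beside 3.68% and 3.9% of all genes. Of these, 4 higher and 2 lower were replication genes, and 9 higher were mitosis genes. Within each of the 3 numbers, 31 genes were higher in Ahr-ko and 3 were lower on every comparison, where 21.8% and 19.9% of all genes were. Groups without overlap were found for 12 genes higher and 1 lower in Ahr-ko (9.76% and 8.91% of all genes). Of these, 10 higher and 1 lower were among the 18 replication genes. Only 2 of the 20 mitosis genes were higher without overlap, near the share of all genes. As the members were chosen with results of these arrays known, these counts are a description. Since only the number 1 arrays were set apart, pairing within numbers 2 and 3 rests on the shared number alone.

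**Figure D2:**
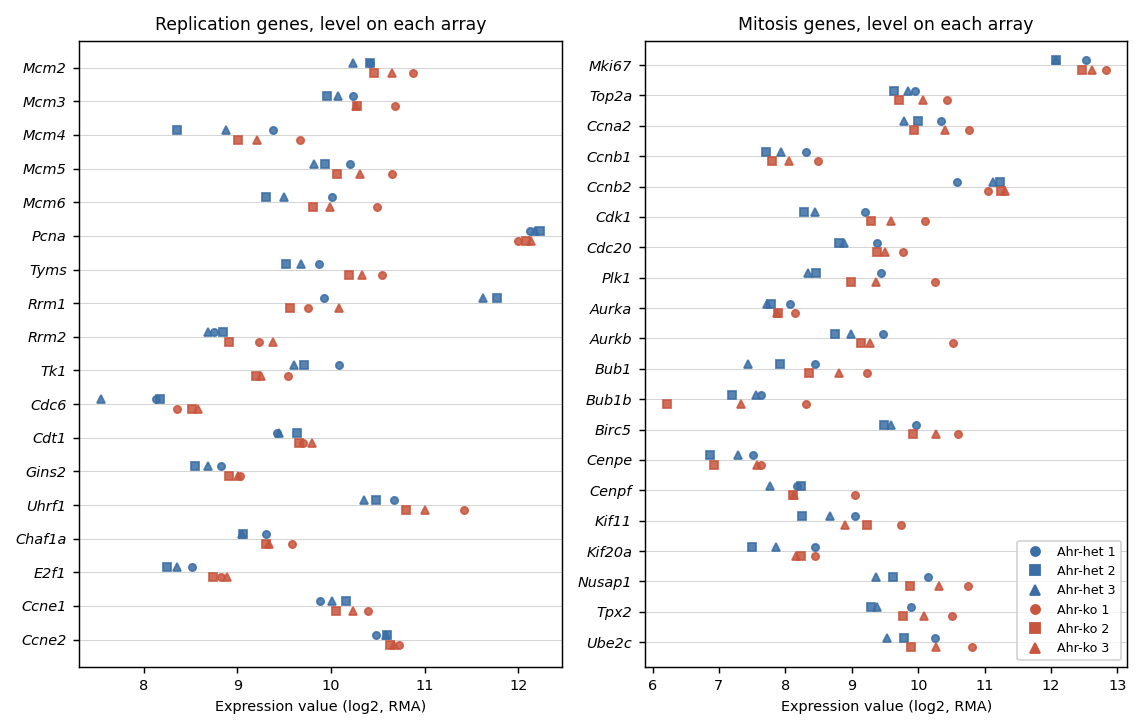
Level of each measured replication gene (left) and mitosis gene (right) on each of the 6 arrays (log2, horizontal axis), with colour for genotype and symbol for replicate number. The number 1 arrays (circles) lie to the right in either genotype for 18 of 20 mitosis genes. Of these 20, Cdk1 and Cdc20 have groups that do not overlap, where 9.76% of all genes were higher without overlap.

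Among the genes that license origins and unwind DNA, all 5 measured subunits of the MCM helicase had a positive difference within each of the 3 numbers, and Mcm6 passed with the block. Mcm6 was at 10.01, 9.31 and 9.49 in Ahr-het and at 10.49, 9.80 and 9.99 in Ahr-ko (log2, arrays 1 to 3). The groups overlapped, since Ahr-het 1 was above Ahr-ko 2 and 3, while the difference within numbers 1, 2 and 3 was 0.48, 0.50 and 0.49. Its log2 difference was 0.49 (95% interval −0.03 to 1.01, adjusted p = 0.412, limma), and with the block 0.27 to 0.71 with an adjusted p of 0.0168.

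Mcm2, Mcm3, Mcm4 and Mcm5 had differences of 0.30, 0.32, 0.42 and 0.35, and none passed with or without the block. Mcm4 ranged from 8.36 to 9.38 within Ahr-het alone, and its adjusted p went from 0.585 to 0.0553 with the block (limma). Cdc6 and Cdt1, which load the helicase onto origins, differed by 0.54 and 0.22, and Gins2, part of the active helicase, by 0.30. All 3 had groups that did not overlap, but adjusted p of 0.0781 or more with the block in limma. Cdc6 on the array of Ahr-het 3 was at 7.55 and under the limit.

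Pcna, the sliding clamp of the DNA polymerases, went the other way, with 12.12, 12.23 and 12.18 in Ahr-het against 12.00, 12.08 and 12.13 in Ahr-ko. Its difference of −0.11 (95% interval −0.33 to 0.12) did not pass (adjusted p = 0.751, limma). The interval leaves out a rise of the size seen in Tyms.

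Enzymes of deoxynucleotide supply differed in direction among themselves. Tyms, which makes thymidylate from deoxyuridylate, was at 9.87, 9.52 and 9.68 in Ahr-het and at 10.54, 10.19 and 10.33 in Ahr-ko. The groups did not overlap, and the difference was nearly the same within each number (0.67, 0.66 and 0.64). Tyms rose by 0.66 on the log2 scale or 1.58-fold (95% interval 0.34 to 0.97, adjusted p = 0.0427, limma, and 0.00362 with the block). It passed narrowly, and leaving out any array other than Ahr-het 1 ended the call (differences of 0.56 to 0.74 in those fits).

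Tk1, thymidine kinase of the salvage route to the same nucleotide, was lower in Ahr-ko. It was measured at 10.08, 9.71 and 9.61 in Ahr-het and at 9.54, 9.19 and 9.26 in Ahr-ko, without overlap. The difference was −0.47 or 1.38-fold lower (95% interval −0.82 to −0.11, adjusted p = 0.223 in limma, and 0.0245 with the block).

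Rrm1 codes for the large subunit of ribonucleotide reductase, which makes deoxynucleotides from ribonucleotides. Its levels were 9.93, 11.77 and 11.62 in Ahr-het and 9.75, 9.56 and 10.08 in Ahr-ko. Ahr-het 2 and 3 stood far above the other 4 arrays, while Ahr-het 1 lay within the range of Ahr-ko, so the groups overlapped. The difference of −1.31 (95% interval −2.31 to −0.31) had an adjusted p of 0.224 in limma and 0.0344 with the block, and it was −0.18 within number 1 against −2.20 and −1.55 within numbers 2 and 3. Leaving out Ahr-het 1 gave −1.90 and a call. The partner subunit Rrm2 had a positive difference of 0.41 with groups that did not overlap (8.68 to 8.85 against 8.92 to 9.38) and an adjusted p of 0.219, or 0.107 with the block.

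Regulators of S phase entry and of newly made chromatin included another 2 genes, E2f1 and Uhrf1, that were called higher with the block. E2f1, an activator of the replication genes, was at 8.52, 8.24 and 8.36 in Ahr-het and at 8.83, 8.74 and 8.89 in Ahr-ko, without overlap. The difference was 0.45 (95% interval 0.19 to 0.70, adjusted p = 0.0898 in limma, and 0.0317 with the block). Uhrf1, which brings the maintenance methyltransferase to newly copied DNA, was at 10.67, 10.48 and 10.35 in Ahr-het and at 11.42, 10.80 and 11.00 in Ahr-ko. These groups did not overlap either, and the difference was 0.57 (95% interval 0.18 to 0.96, adjusted p = 0.162 in limma, and 0.0189 with the block). Chaf1a, a subunit of the histone chaperone CAF-1, differed by 0.27, and the G1/S cyclins Ccne1 and Ccne2 by 0.21 and 0.12, with no call for any of the 3.

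The kinase at the centre of mitotic entry showed the largest difference among the mitosis genes. Cdk1, which with cyclin B starts mitosis, was measured at 9.20, 8.28 and 8.45 in Ahr-het and at 10.10, 9.29 and 9.59 in Ahr-ko. The groups did not overlap, though Ahr-het 1 came close to Ahr-ko 2. The difference was 1.02 or 2.02-fold (95% interval 0.39 to 1.65, adjusted p = 0.116, limma). With the block the interval was 0.79 to 1.25 and the adjusted p was 0.000398, and without Ahr-het 1 it was called with no block at 1.30.

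The cyclin partners did not follow in size. Ccna2, Ccnb1 and Ccnb2 had differences of 0.33, 0.13 and 0.22, with 95% intervals that held 0 without the block and adjusted p of 0.229 or more with it (limma). For Ccnb1 the interval with the block was −0.09 to 0.35, which leaves out a difference of the size of Cdk1. Ccnb2 was also an exception among arrays, since Ahr-het 1 at 10.59 and Ahr-ko 1 at 11.05 were the lowest of their groups.

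Plk1, a kinase of centrosome maturation and chromosome segregation, was at 9.44, 8.46 and 8.34 in Ahr-het and at 10.26, 8.99 and 9.37 in Ahr-ko. Ahr-het 1 was above Ahr-ko 2 and 3, so the groups overlapped. The difference was 0.79 (95% interval −0.06 to 1.65, adjusted p = 0.419 in limma, and 0.00411 with the block). The mitotic kinases Aurka and Aurkb, of the spindle pole and of the chromosomal passenger complex, differed by 0.11 and 0.58 without a call. In Aurkb the difference within number 1 was 1.06 against 0.39 and 0.29 in the others.

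Birc5, which codes for survivin in the passenger complex with Aurkb, was at 9.96, 9.48 and 9.59 in Ahr-het and at 10.60, 9.92 and 10.27 in Ahr-ko. The groups overlapped by Ahr-het 1 and Ahr-ko 2 alone. The difference was 0.58 (95% interval 0.14 to 1.03, adjusted p = 0.224 in limma, and 0.00996 with the block).

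In the spindle checkpoint, which delays anaphase until every chromosome is attached to the spindle, members differed. Bub1, a kinase of this checkpoint at the kinetochore, was at 8.45, 7.93 and 7.44 in Ahr-het and at 9.23, 8.35 and 8.81 in Ahr-ko. Ahr-het 3 was below the background limit, and Ahr-het 1 was above Ahr-ko 2. The difference was 0.86 or 1.81-fold (95% interval 0.20 to 1.51, adjusted p = 0.223 in limma, and 0.0149 with the block).

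Bub1b, the checkpoint protein BUBR1, was the only mitosis gene with a negative difference, and it was above the limit on 2 of 6 arrays. It was at 7.64, 7.20 and 7.56 in Ahr-het and at 8.31, 6.21 and 7.33 in Ahr-ko, with Ahr-ko at either end. The difference of −0.18 (95% interval −1.20 to 0.84) turned to 0.36 without Ahr-ko 2. Cdc20, which activates the anaphase-promoting complex once the checkpoint is satisfied, was at 9.38, 8.81 and 8.88 in Ahr-het and at 9.78, 9.38 and 9.51 in Ahr-ko. Its groups only just stayed apart, with Ahr-het 1 next to Ahr-ko 2, and the difference was 0.53 (95% interval 0.13 to 0.93, adjusted p = 0.22 in limma, and 0.0151 with the block). Ube2c, the ubiquitin-conjugating enzyme of that complex, differed by 0.46 and was not called.

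Among spindle proteins, Tpx2, which activates Aurka on spindle microtubules, was at 9.89, 9.28 and 9.38 in Ahr-het and at 10.51, 9.78 and 10.09 in Ahr-ko. Ahr-het 1 was above Ahr-ko 2, and the difference was 0.61 (95% interval 0.10 to 1.11, adjusted p = 0.267 in limma, and 0.00733 with the block).

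Nusap1, which bundles spindle microtubules, was at 10.14, 9.63 and 9.37 in Ahr-het and at 10.75, 9.88 and 10.31 in Ahr-ko. It showed the same overlap of Ahr-het 1 with Ahr-ko 2, and a difference of 0.60 (95% interval 0.02 to 1.18, adjusted p = 0.364 in limma, and 0.0305 with the block). Kif11, the motor that pushes the spindle poles apart, was at 9.04, 8.25 and 8.68 in Ahr-het and at 9.75, 9.23 and 8.89 in Ahr-ko. Here Ahr-ko 3 was the lowest of its group and lay under Ahr-het 1, and the difference was 0.63 (95% interval 0.05 to 1.22, adjusted p = 0.334 in limma, and 0.0324 with the block). Kif20a, a motor of cytokinesis, differed by 0.34 and by 0.00118 within number 1.

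Mki67, the proliferation antigen Ki-67 that coats mitotic chromosomes, was at 12.53, 12.07 and 12.08 in Ahr-het and at 12.82, 12.47 and 12.61 in Ahr-ko. Ahr-het 1 lay between Ahr-ko 2 and 3, and the difference was 0.41 or 1.33-fold (95% interval 0.05 to 0.77, adjusted p = 0.301 in limma, and 0.0447 with the block). Top2a, which untangles sister chromatids, differed by 0.26, and the kinetochore proteins Cenpe and Cenpf by 0.16 and 0.38. None of these 3 passed, and Cenpe was above the limit on only 3 arrays.

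**Figure D3:**
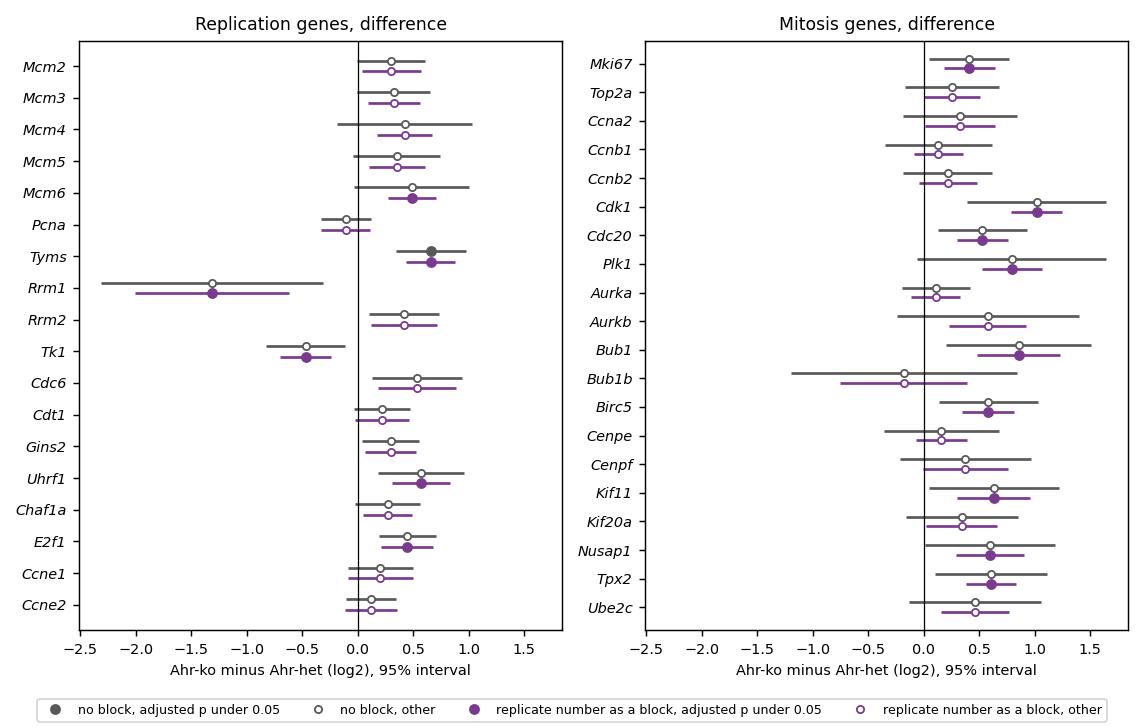
Log2 difference of Ahr-ko minus Ahr-het (horizontal axis) for each replication gene (left) and mitosis gene (right), with 95% intervals from limma without (grey) and with (purple) the replicate number as a block and filled points for an adjusted p under 0.05. Tyms is the only gene filled in grey, and 15 genes are filled in purple, of which Rrm1 and Tk1 lie below 0.

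Mitosis genes were spread more widely between arrays of the same genotype than replication genes. The SD within Ahr-het had a median of 0.327 over the mitosis genes and 0.143 over the replication genes, beside 0.142 over all genes, and in Ahr-ko it was 0.4, 0.183 and 0.15. The number 1 array was the highest of its group in both genotypes for 18 of 20 mitosis genes (90%) and 9 of 18 replication genes (50%), against 26.3% of all genes. With the block the median standard error was reduced more in mitosis (0.224 without, 0.116 with) than in replication genes (0.137 and 0.105) or all genes (0.129 and 0.107).

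For a value per array, each gene was centred on its mean over the 6 arrays and the members of a list were averaged. The replication genes were at −0.046, −0.115 and −0.151 in Ahr-het and at 0.246, −0.048 and 0.115 in Ahr-ko (log2). The mitosis genes were at 0.097, −0.398 and −0.360 in Ahr-het and at 0.630, −0.123 and 0.154 in Ahr-ko. In mitosis genes Ahr-het 1 was above Ahr-ko 2, so the groups overlapped. The groups overlapped in replication genes too, though only just, with Ahr-ko 2 slightly lower than Ahr-het 1.

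The mean of the mitosis genes was higher in Ahr-ko by 0.53, 0.28 and 0.51 within numbers 1, 2 and 3, and that of the replication genes by 0.29, 0.07 and 0.27. The mitosis mean minus the replication mean was −0.116 ± 0.227 in Ahr-het and 0.116 ± 0.239 in Ahr-ko (SD, n = 3), so the difference of 0.233 between the genotypes was about the size of the spread within them. Within numbers it was 0.242, 0.209 and 0.248. Rrm1 carried part of it: with this gene left out of the replication genes, a choice made after seeing the data, it was 0.143. Without Ahr-ko 1 it was 0.0987 and without Ahr-het 1 it was 0.362. Keratinocyte markers, the lowest on the number 1 arrays where the mitosis genes were highest, were centred at −0.119, 0.166 and 0.162 in Ahr-het and at −0.256, 0.072 and −0.024 in Ahr-ko. With their mean as a covariate, the median difference was 0.19 for replication and 0.18 for mitosis genes, and the mitosis minus replication difference was 0.038. This covariate itself differed between the genotypes (−0.139) and included Dsp, which was called lower in Ahr-ko, whereas the median difference of the 14 markers was −0.016. Leaving out the number 1 arrays of both genotypes, 2 replication genes were called higher and 1 lower (Tyms, E2f1 and Rrm1), and 5 mitosis genes higher (Cdk1, Cdc20, Plk1, Bub1 and Tpx2), beside 2.72% and 2.93% of all genes.

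**Figure D4:**
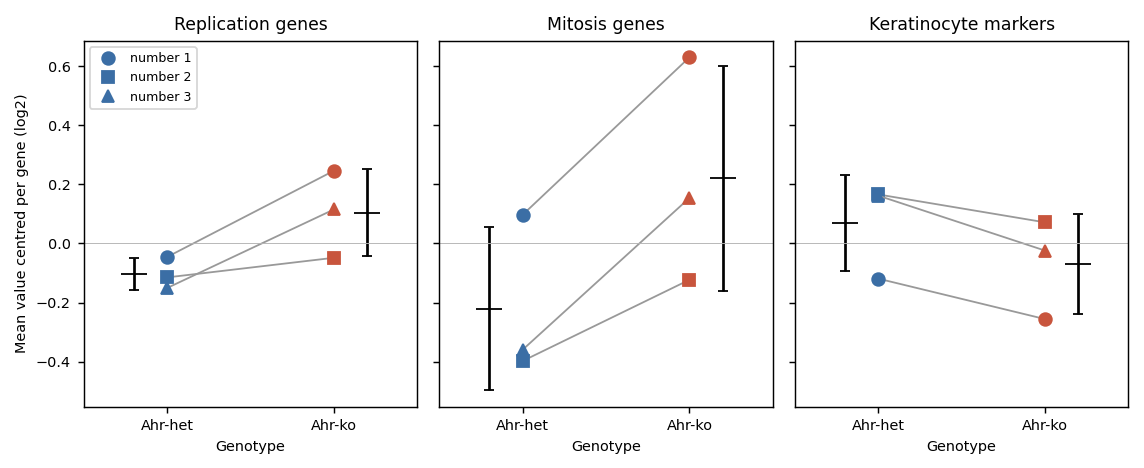
Mean log2 value per array of the replication genes, mitosis genes and keratinocyte markers, each gene centred on its mean over the 6 arrays (vertical axis), by genotype. Grey lines join arrays of equal replicate number, and black bars give the mean and SD of 3 arrays. Every line rises from Ahr-het to Ahr-ko in the replication and mitosis panels (by 0.28 to 0.53 in mitosis genes) and falls in the keratinocyte panel. The keratinocyte mean includes Dsp (difference −1.22), while 6 of the 14 markers had a positive difference.

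The rest of the cell cycle was taken from 14 further lists, of which 272 of 279 genes were measured. In them 5 genes were called higher and 0 lower (limma), a share close to the 1.58% of all genes called higher. With the block there were 42 and 5, beside 3.68% and 3.9% of all genes. Without it 51 and 10 had an unadjusted p under 0.05, beside 6.69% and 6.54%. A positive difference was found for 198 of the 272 genes, against 50.8% of all genes. The medians of the lists lay between −0.05 in genes of quiescence and 0.34 in genes of cytokinesis and spindle motors, where 35 of 38 differences were positive. The kinetochore list followed with 0.29 and 26 of 31.

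Among the E2F and pocket proteins, E2f2, an activator like E2f1, had the largest difference of the 14 lists. It was at 9.14, 9.02 and 8.72 in Ahr-het and at 10.97, 10.22 and 10.41 in Ahr-ko, with a wide gap between the groups. E2f2 rose by 1.58 or 2.98-fold (95% interval 1.11 to 2.04, adjusted p = 0.00398, limma). The median over the 12 members of this list was 0.09.

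In nucleotide supply, 2 of 19 genes rose, beside 1.58% of all genes, in either case without overlap of the groups. Umps, which makes UMP from orotate, differed by 0.78 (adjusted p = 0.0322, limma), with Ahr-het 3 under the limit. Mthfd1, which supplies the folate that Tyms uses, differed by 0.61 (adjusted p = 0.041, limma). The widest differences in this list, picked out after their values were seen, passed only with the block and ran in opposite directions. Impdh2, a step of guanine nucleotide synthesis, was at 10.92, 11.92 and 12.23 in Ahr-het and at 9.96, 10.62 and 11.05 in Ahr-ko. The groups overlapped, and the difference was −1.15 (adjusted p = 0.199 in limma, and 0.000278 with the block). Mthfd2, of mitochondrial folate metabolism, had 0.96 without overlap (adjusted p = 0.158 in limma, and 0.000493 with the block). Ncaph, a condensin subunit, was higher by 0.76 and Arhgap11a, a regulator of cytokinesis, by 0.71 (adjusted p = 0.0288 and 0.032, limma).

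In the other lists no gene passed without the block, and the genes with the largest differences, up to 2 of a list, are given as values. For licensing, Orc1 of the origin recognition complex was at 7.98, 9.47 and 9.32 in Ahr-het and at 8.06, 7.82 and 8.04 in Ahr-ko. As in Rrm1, Ahr-het 2 and 3 were high and Ahr-het 1 lay among the Ahr-ko arrays (difference −0.95). Gins1 had 0.58 but was under the limit on 5 arrays.

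At the fork, Pola1 of the priming polymerase had 0.65 and Rpa1, which coats single strands, −0.50, and with the block these passed (adjusted p = 0.0129 and 0.0453, limma). The G1 genes Cks1b and Cdk2 had 0.68 and 0.55, and passed with the block as well (adjusted p = 0.0146 and 0.0251, limma). Chromatin assembly gave 0.51 for Asf1b and 0.44 for Chaf1b, both histone chaperones.

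Of 8 CDK inhibitors, the brakes of the cycle, 0 passed in limma, where 1.58% of all genes were called higher and 1.57% lower. At an unadjusted p under 0.05, 1 was higher and 0 lower (6.69% and 6.54% of all genes). With the block 1 was higher and 1 lower (3.68% and 3.9% of all genes). The CDK inhibitor Cdkn1a, which codes for p21, was at 12.18, 13.46 and 13.36 in Ahr-het and at 11.68, 12.97 and 13.08 in Ahr-ko. It was lowest on the number 1 array of either genotype, in contrast to the mitosis genes, and its difference of −0.42 passed only with the block (adjusted p = 0.781 without and 0.0394 with, limma). Cdkn3, a phosphatase listed with the inhibitors, had 0.46. Among genes of quiescence Tsc22d3, a glucocorticoid response gene, had −0.47, and Slfn2 had 0.61 with all Ahr-het arrays under the limit.

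Of the regulators upstream of the mitosis genes, the B-MYB gene Mybl2 and its relative Mybl1 differed by 0.43 and 0.44, and no gene of that list passed with or without the block. The checkpoint and anaphase-promoting complex list held values in both directions, 0.45 for Mad2l1 and −0.50 for Anapc2. At the kinetochore Sgo1, which protects cohesion, had 0.86 and Cenpm 0.58, with an adjusted p of 0.00225 and 0.0185 in the block fit of limma. Sgo1 was at 8.29 in Ahr-het 1 but under the limit in Ahr-het 2 and 3.

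**Figure D5:**
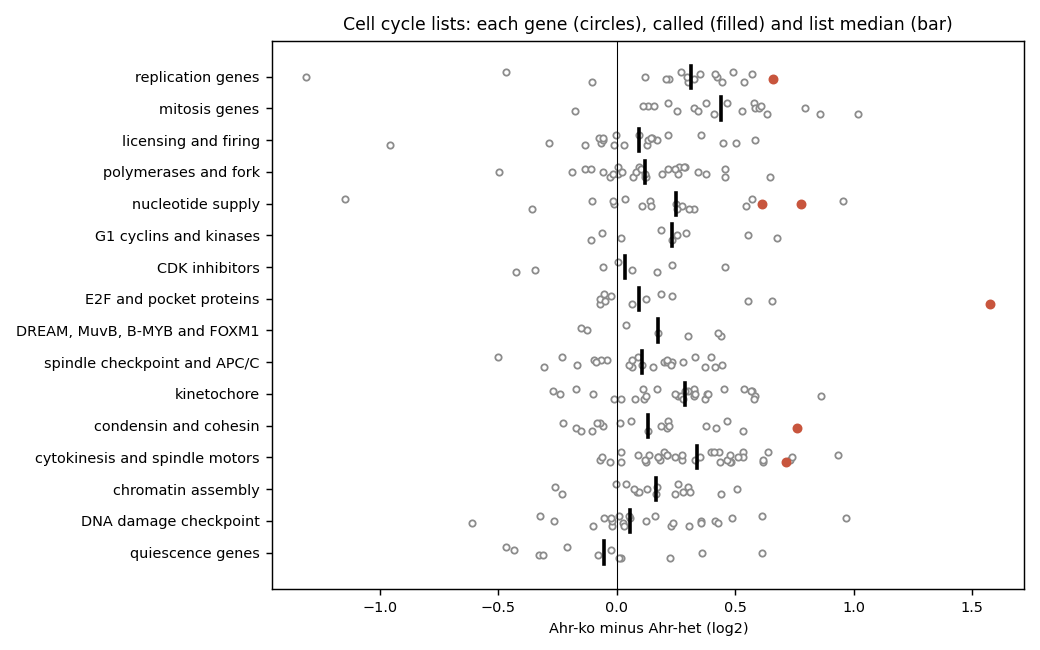
Log2 difference of Ahr-ko minus Ahr-het (horizontal axis) of each gene in the replication, mitosis and 14 further cell cycle lists, with filled points for an adjusted p under 0.05 in limma without the block and a bar at the median. The medians run from −0.05 in quiescence genes to 0.44 in mitosis genes, and 6 points are filled, Tyms and 5 genes of the further lists.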

How the data were processed

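RNA of DETC, sorted and pooled from 2 to 3 mice, was measured on 6 arrays, and genotype and replicate number were taken from the labels. The values are deposited on the log2 scale and were summarised and normalized by the authors with RMA. Its version and the annotation and build of the probe sets were not given in the sources used here. A table of the comparison by the authors (limma 3.38.3 per the processing notes) holds fold changes, p-values and scores, none of which were used apart from its gene names. Of 29129 probe sets, 8694 name no gene by ID and were dropped. Of the rest, the brightest was kept for each of 86 genes with several, which gave 20300 genes. Ahr-ko was compared with Ahr-het by lmFit and eBayes of limma 3.58.1 (R 4.3.3) with Benjamini-Hochberg adjustment over all genes and a threshold of 0.05, without a covariate. The test was checked on simulated data.

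Replicate numbers are shared between genotypes. Deviations of each array from its genotype's mean were correlated across genes, which gave 0.572, 0.369 and 0.207 for arrays numbered 1, 2 and 3. All were above 0.1, so arrays of equal number were treated as pairs, and values with this block stand beside results it changes. Ahr-het 3 with Ahr-ko 2 (0.336) and Ahr-het 2 with Ahr-ko 3 (0.236) were positive too, so only number 1 is set apart by this check. Nothing says that pools came from separate litters or days, so p-values measure the spread between these pools. The number of arrays limits the precision. The genes and lists were chosen with earlier results of these data known. Named were all members and, from each further list, up to 4 genes past the threshold or otherwise the 2 with the largest difference. Genes that this rule picks from the DNA damage list are not reported here. Alternatives were the block, each array or the number 1 pair left out, median centring, quantile normalization once more, a filter on dim genes, array weights, all probe sets, a keratinocyte covariate, the mean over probe sets and eBayes with trend and robust settings. Promoters came from the RefSeq table of GRCm38.p6.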

Additional observations from a re-analysis of the deposited data

How the results depend on the processing

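The positive median of the mitosis genes (0.44) and of the replication genes (0.31) kept its sign in all alternatives, but with the keratinocyte covariate these were 0.177 and 0.189. The mitosis median ran from 0.278 (without Ahr-ko 1) to 0.63 (without Ahr-het 1). The mitosis minus replication difference of 0.233 ran from 0.0987 to 0.362 without the same arrays, was 0.15 without Ahr-het 2, and was 0.038 with the covariate. Counts of called genes moved. In place of 0 called mitosis genes there were 9 with the replicate block, 7 with array weights, 1 with the keratinocyte covariate and 0 to 5 with arrays left out (2 without Ahr-het 1, 5 without number 1 of both genotypes). In place of 1 called replication gene there were 6 with the block, 7 with array weights, 2 with the keratinocyte covariate, 0 with all probe sets tested, 0 with trend and robust settings, and 0 to 3 with arrays left out. The call of Tyms also ended with all probe sets and with trend and robust settings. With the keratinocyte covariate 3 differences turned: Aurka to −0.0249, Ccnb1 to −0.135 and Cenpe to −0.0727. With single arrays left out Ccnb1 spanned −0.0555 to 0.296, Cenpe −0.0223 to 0.383 and Bub1b −0.69 to 0.36. The cause was not tested. The dim filter left Bub1b and Cenpe out. Members near the background limit (Cdc6, Bub1, Bub1b, Cenpe and Kif20a) were under it on 1 to 4 arrays, which limits their differences.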
